A study of Danio rerio with 6 samples.

Results

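The lens crystallins of zebrafish larvae were examined as a gene family. Members were all entries of the deposited gene table whose symbol starts with cryaa, cryab, cryb or cryg and whose mean signal over the 6 libraries was above 0. The table lists 74 such entries, of which 15 were at 0, and this left 59 members with 50 symbols among 23956 genes with a mean above 0. By symbol they are 2 alpha, 13 beta and 40 gamma entries, together with 4 entries named crybg, whose proteins carry beta/gamma crystallin domains and which were counted as a class of their own.

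Crystallins are the soluble proteins that fill the fiber cells of the vertebrate lens and give it its refractive power and transparency. Alpha crystallins belong to the small heat shock proteins and act as chaperones that keep other lens proteins in solution. Beta and gamma crystallins share a fold built from Greek key motifs, beta crystallins associating into oligomers of acidic and basic subunits and gamma crystallins staying monomeric. The dense lens of fishes is known for its gamma M crystallins, a methionine-rich family encoded by many neighbouring gene copies.

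The study asked whether tlr2, the gene of a pattern recognition receptor, influences metabolism in larvae that had met no infection. Poly(A) RNA of whole larvae was sequenced with stranded libraries and reads of 150 nt at 5 days post-fertilization (dpf). The 3 tlr2-/- libraries came from unchallenged homozygous larvae of the sa19423 line, which arose by chemical (ENU) mutagenesis, and the 3 tlr2+/+ libraries from unchallenged larvae with the wild type allele on the same outcrossed ABTL background. Larvae of each genotype came from their own parents, 3 pairs per genotype, so the mutation cannot be told apart from other differences between the parents. How many larvae a library holds is not stated in the sources used.

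The tlr2-/- libraries held 17854737 to 24088390 estimated reads and the tlr2+/+ libraries 19828367 to 33403126. Both entries of tlr2 (ENSDARG00000037758 and ENSDARG00000116961) had no reads. For counting error only, the upper limit behind such a zero (3 counts) corresponds to 0.0567 to 0.183 CPM, so the genotype labels could not be checked by the level of tlr2. CPM here are estimated counts scaled to a common library size with TMM factors, and TPM are the deposited length-scaled values, the unit used wherever levels of different genes are compared. Replicate 3 of tlr2+/+ stood apart, with 19194 genes at 10 or more reads and a TMM factor of 1.59, while the other 5 libraries had 11906 to 17126 such genes and factors of 0.789 to 0.983. The called count, the median log2 fold change and the beta and gamma ratios between the genotypes are given with and without it. Correlations and ranges over libraries are given for all 6 libraries only. Values are listed in the order of replicates 1, 2 and 3 of each genotype, SD is over 3 libraries, and p-values measure the spread between these libraries.

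Lens RNA was present in every library. The lens fiber water channel gene mipb had 91.9, 123 and 17.1 CPM in tlr2-/- larvae, against 172, 99.5 and 15.5 CPM in tlr2+/+ larvae. The fiber membrane gene lim2.4 had 47.9, 64.1 and 16.3 CPM in tlr2-/- larvae, against 85.3, 38.6 and 18.9 CPM in tlr2+/+ larvae. The lengsin gene lgsn had 3.49, 3.21 and 3.66 CPM in tlr2-/- larvae, against 15.0, 6.98 and 5.04 CPM in tlr2+/+ larvae (log2 fold change -1.38, SE 0.80, edgeR adjusted p = 1.0). The water channel gene mipa had 11.0, 29.0 and 7.93 CPM in tlr2-/- larvae, against 27.6, 5.04 and 6.93 CPM in tlr2+/+ larvae, and the lens intermediate filament gene bfsp2 was also detected in all 6 libraries. Of the defining lens genes searched, gja8b, a connexin gene of lens fibers, lay between 0 and 0.316 CPM.

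Alpha, beta and gamma crystallins with reads in more than 1 library numbered 48, and together they made up 2.52, 2.64 and 1.12% of all TPM in tlr2-/- larvae, against 4.44, 2.81 and 1.64% in tlr2+/+ larvae. Replicate 3 was the lowest library of each genotype, and the 2 ranges overlapped. Among 21079 genes with values, 34 of the 48 crystallins ranked in the 500 most abundant by mean TPM and 0 in the top 100. The most abundant was crybb1, a basic beta crystallin gene, at rank 118 with a mean of 1753 TPM, followed by a copy of crygm2d8 at 1633 TPM and by crybb1l2 at 1369 TPM. A mean of at least 100 TPM was reached by 35 of the 48, another 8 lay between 1 and 100 TPM, and 5 lay under 1 TPM.

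Gamma crystallins held most of the crystallin TPM in all 6 libraries. Their share of the alpha, beta and gamma sum was 73.2, 75.8 and 81.2% in tlr2-/- larvae, against 68.8, 74.1 and 79.0% in tlr2+/+ larvae. Beta crystallins held 26.7, 24.1 and 18.8% in tlr2-/- larvae, against 31.0, 25.8 and 20.9% in tlr2+/+ larvae, so within each genotype their share was smallest in replicate 3. The alpha class, a single entry of cryaa, held 0.0960, 0.101 and 0.0299% in tlr2-/- larvae, against 0.168, 0.0864 and 0.0603% in tlr2+/+ larvae. The size of these shares depends on the length scaling of TPM, which CPM lack. By summed CPM the gamma share was 58.1, 61.6 and 68.3% in tlr2-/- larvae, against 53.3, 59.4 and 66.2% in tlr2+/+ larvae.

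No crystallin passed the test between the genotypes. Of the 59 members, 7 had reads in 1 library only, 5 lay under the filter on low counts and 47 were tested in a fit over all 16776 genes that passed the filter. With edgeR's quasi-likelihood test at a Benjamini-Hochberg adjusted p under 0.05, 0 of 47 crystallins were called, beside 0.00596% (1 gene) over the whole table. Without adjustment, 0 of 47 had an edgeR p under 0.05, while 3.73% of all genes did. DESeq2 called 0 of 47 by its Wald test and by apeglm, and limma-trend on log2(TPM + 1) called 0. The standard errors of the log2 fold changes were wide, from 0.44 to 2.41 with a median of 0.58.

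A negative log2 fold change (tlr2-/- over tlr2+/+) was found for 30 of the 47 tested crystallins, beside 48.9% of all genes, with a median of -0.22 against 0.02 over all genes. The classes were unequal in this description. The median was -0.67 for cryaa, the sole alpha entry tested, -0.46 for 10 beta entries, -0.12 for 32 gamma entries and -0.12 for 4 crybg entries. Single libraries decided the sign of the overall median, which was 0.36 without tlr2+/+ replicate 1 and 0.10 without tlr2-/- replicate 3, but -0.62 without tlr2+/+ replicate 3. Without that last library 5 of 49 tested crystallins had an unadjusted edgeR p under 0.05 with lower levels in tlr2-/- larvae and 1 with higher levels, beside 3.45 and 13.3% of all genes, and 0 were called. Set against tlr2+/+ replicate 3 alone, an alternative chosen after the data were seen, 2 of 52 crystallins were called and higher in tlr2-/- larvae (cryba1a and a crygm2d4 entry), beside 3.73% of all genes, and 22 had an unadjusted edgeR p under 0.05 with higher levels and 0 with lower levels, beside 8.39 and 2.65%. That library had the lowest crystallin sum in CPM, so the direction follows from the choice of library, and with 1 tlr2+/+ library the spread came from the tlr2-/- libraries alone, so nothing is read from these counts.

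The TPM scale moved the median of all genes as well as that of the crystallins. By limma-trend on log2(TPM + 1), 38 of 47 crystallins had a lower mean in tlr2-/- larvae, the median difference was -0.46 on the log2(TPM + 1) scale against -0.22 over all genes, and 6 had an unadjusted p under 0.05, all lower in tlr2-/- larvae, beside 7.04% of all genes in that direction.

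**Figure D1:**
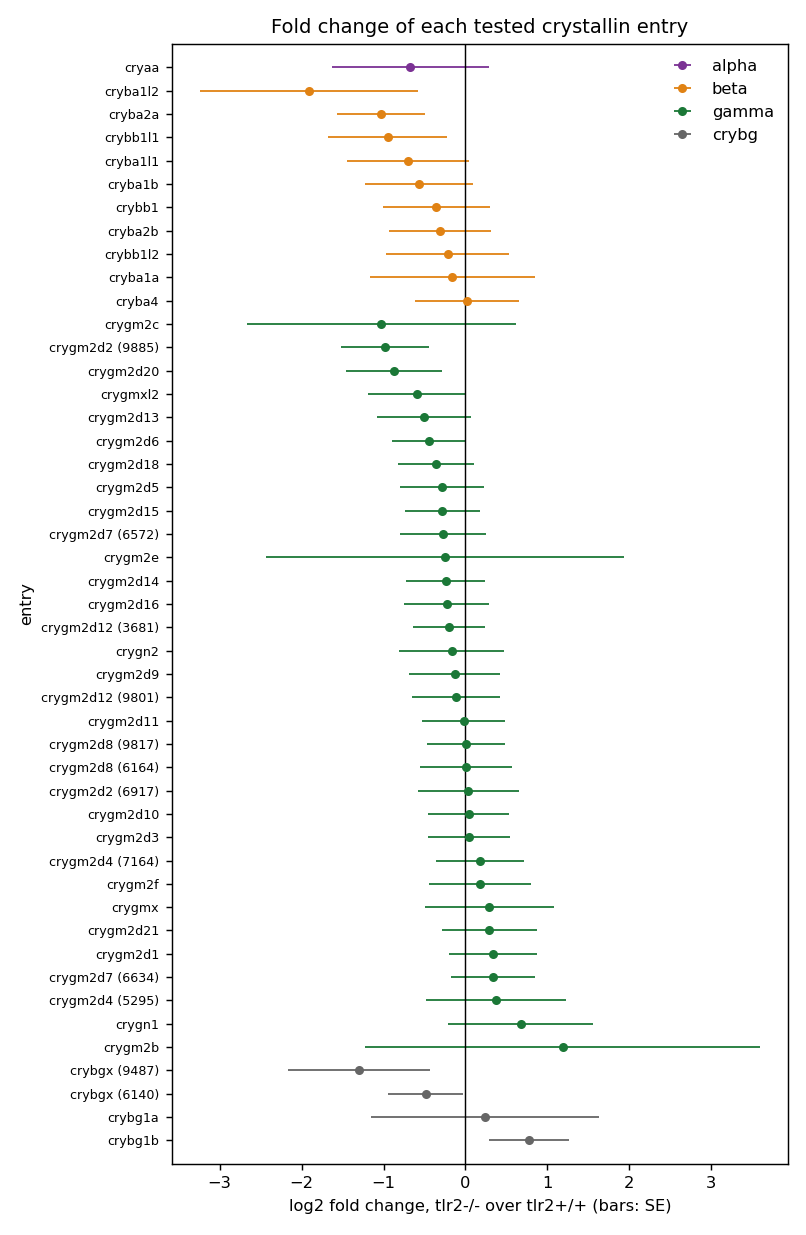
Log2 fold change (tlr2-/- over tlr2+/+, x axis) of each of the 47 tested crystallin entries, with bars for the standard error of edgeR's fit and colours for the classes; digits in brackets are the last of the gene ID where a symbol has more than 1 entry. Of 10 beta entries 9 lie left of 0, gamma entries lie on both sides (18 left, 14 right), and adjusted p was 1.0 for the entry with the smallest p.

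Cryaa, which encodes the lens chaperone alpha A crystallin, was the only alpha gene with usable values. It had 29.7, 42.4 and 4.51 CPM in tlr2-/- larvae, against 83.7, 31.7 and 6.91 CPM in tlr2+/+ larvae. Replicate 3 was lowest in both genotypes, tlr2+/+ replicate 1 was highest, and the groups overlapped. The log2 fold change was -0.67 (SE 0.96, edgeR adjusted p = 1.0), and it was 0.47 without tlr2+/+ replicate 1. Without tlr2+/+ replicate 3 it was -1.17. Between its highest and lowest library cryaa differed 18.5-fold, where the 10 tested beta entries differed 6.26- to 39.2-fold (median 8.62) and the gamma entries with reads in every library 2.91- to 13.1-fold (median 4.94). In TPM its mean was 27.1, rank 1820 among genes with values. The other cryaa entry had 144 reads in tlr2+/+ replicate 1 and none elsewhere. Cryaba and cryabb, the alpha B crystallin genes, were listed at 0 in the 6 libraries.

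**Figure D2:**
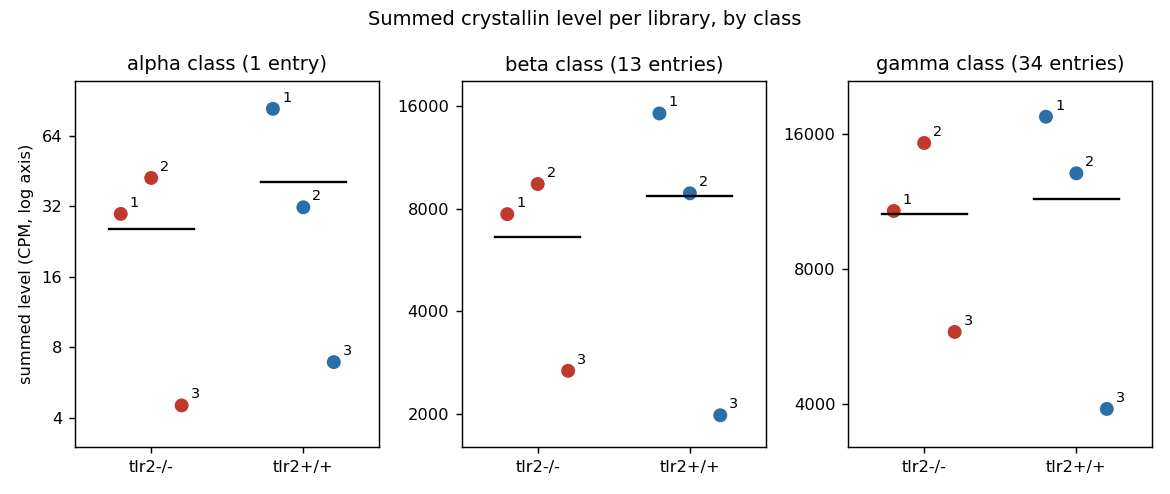
Summed CPM per library (log axes that differ between panels) of the alpha, beta and gamma entries, tlr2-/- on the left and tlr2+/+ on the right of each panel, with replicate numbers beside the points and bars at the group means. Replicate 3 is the lowest point of both genotypes in each class, and tlr2+/+ replicate 1 is the highest point in each.

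The summed beta class had 7724, 9469 and 2677 CPM in tlr2-/- larvae, against 15259, 8891 and 1982 CPM in tlr2+/+ larvae. The means were 6623 ± 3527 CPM in tlr2-/- larvae and 8711 ± 6641 CPM in tlr2+/+ larvae (SD, n = 3 each), a log2 ratio of -0.40 that is smaller than the spread within either genotype. Without tlr2+/+ replicate 1 the log2 ratio was 0.28, and without tlr2+/+ replicate 3 it was -0.87. From summed TPM of all 6 libraries it was -0.69. Acidic subunits (cryba, 7 entries) and basic subunits (crybb, 6 entries) had log2 ratios of their summed CPM of -0.40 and -0.39. The ratio of summed basic to summed acidic TPM was 1.07, 1.25 and 1.26 in tlr2-/- larvae, against 1.12, 1.18 and 0.889 in tlr2+/+ larvae, with overlapping groups.

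The 3 beta genes of highest mean TPM were crybb1, crybb1l2 and cryba1l1. By mean CPM cryba4 stood above cryba1l1, at 1183 CPM in tlr2-/- and 1166 CPM in tlr2+/+ larvae. Crybb1 had 1747, 2159 and 764 CPM in tlr2-/- larvae, against 3184, 2390 and 401 CPM in tlr2+/+ larvae (log2 fold change -0.36, SE 0.65). Crybb1l2, another basic beta gene, had 1920, 2819 and 639 CPM in tlr2-/- larvae, against 3873, 1987 and 396 CPM in tlr2+/+ larvae (-0.22, SE 0.75). Cryba1l1, an acidic beta gene, had 870, 971 and 244 CPM in tlr2-/- larvae, against 2059, 1106 and 222 CPM in tlr2+/+ larvae (-0.70, SE 0.75). In each of these 3 genes the groups overlapped, tlr2+/+ replicate 1 was highest and tlr2+/+ replicate 3 was lowest. The sign turned positive without tlr2+/+ replicate 1 (0.21, 0.65 and 0.12). Without tlr2+/+ replicate 3 the log2 fold changes were -0.83, -0.70 and -1.18.

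The smallest p of the family belonged to cryba2a, an acidic beta crystallin gene. It had 244, 260 and 95.9 CPM in tlr2-/- larvae, against 706, 362 and 159 CPM in tlr2+/+ larvae. The log2 fold change was -1.03 (SE 0.54, edgeR p = 0.080, adjusted p = 1.0), and the exact two-sided permutation test on log2(CPM + 1) gave p = 0.4 where 0.1 is the smallest 3 against 3 libraries allow. The groups overlapped in CPM, since tlr2+/+ replicate 3 lay under the first 2 tlr2-/- libraries, but not in TPM, where tlr2-/- larvae had 270, 223 and 96.5 and tlr2+/+ larvae 830, 375 and 322. Crybb1l1 had 691, 689 and 175 CPM in tlr2-/- larvae, against 1945, 810 and 251 CPM in tlr2+/+ larvae (-0.95, SE 0.72), with overlap.

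Cryba1l2 was the one tested crystallin whose CPM did not overlap between the genotypes, at 1.01, 2.90 and 0.305 CPM in tlr2-/- larvae, against 4.87, 7.64 and 3.40 CPM in tlr2+/+ larvae. It rested on few reads, 22, 55 and 5 in tlr2-/- larvae and 146, 138 and 180 in tlr2+/+ larvae, and its log2 fold change was -1.91 (SE 1.33, edgeR adjusted p = 1.0). Among all genes tested 6.2% had all tlr2-/- libraries lower and 6.87% all higher without overlap, beside 1 lower and 0 higher of the 47 crystallins. In TPM 5 crystallins were lower without overlap (cryba1l2, cryba2a, a crybgx entry, crygm2d6 and a crygm2d12 entry) and 0 higher, where 12.9% of all genes were lower and 2.53% higher.

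The beta genes differed widely in level. Cryba4, crybb1l1, cryba1b, cryba2b and cryba2a had means of 909, 371, 418, 461 and 353 TPM, and cryba1a had 14.4 TPM. Crybb2 and crybb3, which are abundant in the mammalian lens, had means of 0.293 and 0.367 TPM and lay with crybb1l3 under the filter. Of the 10 tested beta genes cryba4 alone had a log2 fold change above 0 (0.02, SE 0.64).

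The summed gamma class had 10765, 15269 and 5780 CPM in tlr2-/- larvae, against 17478, 13065 and 3890 CPM in tlr2+/+ larvae. The means were 10604 ± 4747 CPM in tlr2-/- larvae and 11478 ± 6932 CPM in tlr2+/+ larvae (SD, n = 3 each), a log2 ratio of -0.11. Without tlr2+/+ replicate 1 the ratio was 0.32, without tlr2-/- replicate 3 it was 0.18, and without tlr2+/+ replicate 3 it was -0.53. From summed TPM of all 6 libraries it was -0.44. Of the 32 gamma entries tested, 18 had negative and 14 positive fold changes.

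Most of the gamma signal came from crygm2d, the largest set of gamma M copies. Its 24 entries (19 symbols) made up 64.1, 68.4 and 75.1% of the alpha, beta and gamma TPM in tlr2-/- larvae, against 60.4, 66.8 and 72.9% in tlr2+/+ larvae. All 24 were tested, with log2 fold changes from -0.98 to 0.37. Because near-identical copies can exchange reads in the authors' estimation, the counts of the 24 entries were also summed before the fit, and the sum had a log2 fold change of -0.11 (SE 0.54, edgeR adjusted p = 1.0). Single copies are therefore given as uncertain.

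The copies with the highest mean TPM were lowest in the same libraries as the sum, but did not all share its order of the other libraries. The crygm2d8 entry ENSDARG00000116164 had 743, 1060 and 382 CPM in tlr2-/- larvae, against 1188, 760 and 227 CPM in tlr2+/+ larvae (log2 fold change 0.01, SE 0.56). Crygm2d18 had 402, 512 and 249 CPM in tlr2-/- larvae, against 681, 610 and 205 CPM in tlr2+/+ larvae (-0.36, SE 0.47). Crygm2d10 had 690, 1101 and 420 CPM in tlr2-/- larvae, against 1058, 788 and 307 CPM in tlr2+/+ larvae (0.04, SE 0.49). In each of these the 2 lowest libraries were replicates 3 of the genotypes.

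The copies with the smallest p were the crygm2d2 entry ENSDARG00000109885 and crygm2d20. The symbol crygm2d2 has a pair of entries, and this entry had 189, 131 and 57.3 CPM in tlr2-/- larvae, against 259, 386 and 96.9 CPM in tlr2+/+ larvae (-0.98, SE 0.53, edgeR adjusted p = 1.0). Crygm2d20 had 451, 466 and 214 CPM in tlr2-/- larvae, against 1129, 771 and 169 CPM in tlr2+/+ larvae (-0.87, SE 0.59). Neither was called, and the groups overlapped in both.

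Symbols with a pair of entries showed how reads were divided between copies. The second entry of crygm2d2 took 41.4, 16.9 and 23.5% of the reads of the pair in tlr2-/- larvae, against 28.8, 55.2 and 45.7% in tlr2+/+ larvae, and with both entries summed the log2 fold change was -0.30. The second entry of crygm2d4 took 14.2, 24.1 and 16.9% in tlr2-/- larvae, against 2.54, 31.0 and 25.5% in tlr2+/+ larvae, so the split varied within a genotype as much as between genotypes. For crygm2d7, crygm2d8 and crygm2d12 the second entry took 24.5 to 39.1, 58.6 to 74.7 and 30.6 to 46.1% over the 6 libraries. The table of gene names used here calls the crygm2d8 entry ENSDARG00000069817 crygm2d17. A pair of entries described as gamma M2d19 carries clone names, BX545855.1 and BX545855.2, and so lies outside the rule, with log2 fold changes of -0.17 and 0.06 (SE 0.58 and 0.53).

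All 50 member symbols were found in RefSeq annotation of GRCz12tu, another assembly than that of the files, which was used for gene order alone. There, 34 gamma crystallin genes form a run with at most 1 other gene between consecutive members. In it, 21 crygm2d genes occupy places 9 to 29 with no other crystallin between them. The 19 crygm2d symbols with values had means of 332 to 2478 TPM when entries of a symbol were summed. The 2478 TPM of crygm2d8 sum the entry ENSDARG00000116164 (1633 TPM) and the entry ENSDARG00000069817 (845 TPM), which the table of gene names calls crygm2d17, and the next highest crygm2d symbol was crygm2d4 at 1338 TPM. The flanking genes were far lower, 6 of 13 having values, between 0.195 TPM for crygmxl1 and 32.8 TPM for crygm2f, which adjoins the last crygm2d gene. Of the others in the run, crygm1, crygm2a, crygm3 and crygm5 had 29, 1, 31 and 5 reads, each in a single library, and crygm6, crygs3 and crygs4 were at 0.

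**Figure D3:**
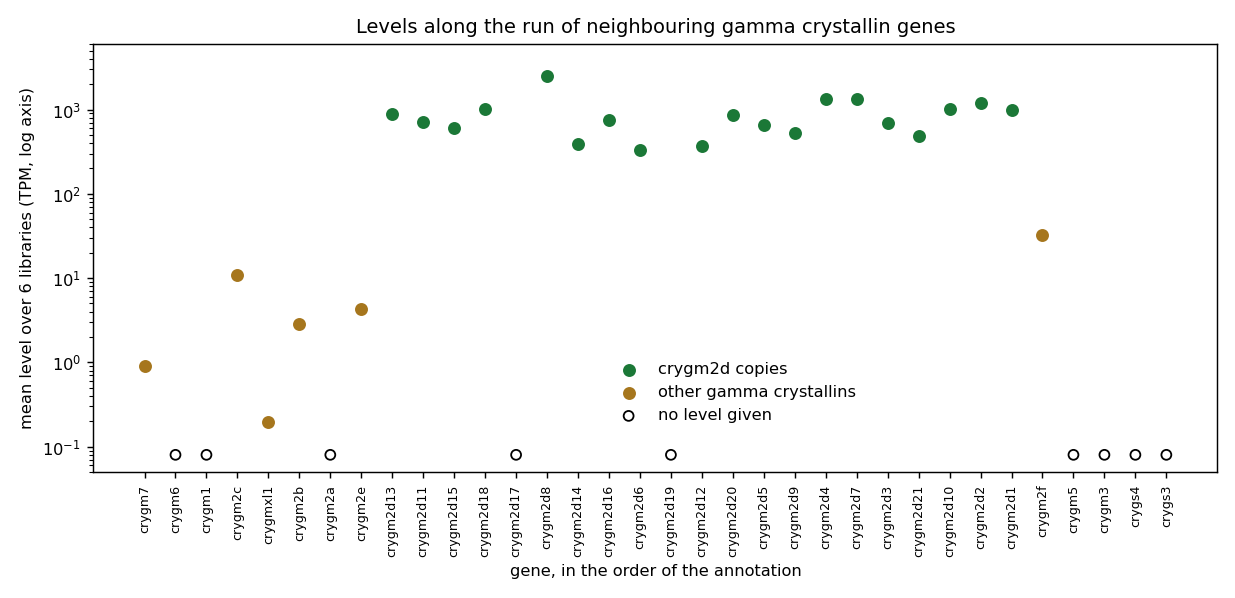
Mean TPM over the 6 libraries (log axis) of the 34 gamma crystallin genes of the run, in annotation order, with entries of a symbol summed. Consecutive genes have at most 1 other gene between them. Open circles mark genes with no level given, because they were at 0, had reads in 1 library or carry another symbol in the files. The crygm2d genes lie between 332 and 2478 TPM, the highest point (crygm2d8) including an entry of 845 TPM that the table of gene names calls crygm2d17, and the flanking gamma genes at or under 32.8 TPM.

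Gamma crystallins outside the crygm2d set reached high levels in 3 genes. Crygn2, of the gamma N family that stands between beta and gamma crystallins in gene structure, had 1117, 1134 and 381 CPM in tlr2-/- larvae, against 1679, 1040 and 237 CPM in tlr2+/+ larvae (log2 fold change -0.17, SE 0.64). Crygmx had 418, 565 and 97.3 CPM in tlr2-/- larvae, against 509, 312 and 62.5 CPM in tlr2+/+ larvae (0.29, SE 0.79), and crygmxl2 had 344, 372 and 145 CPM in tlr2-/- larvae, against 700, 489 and 108 CPM in tlr2+/+ larvae (-0.59, SE 0.60). Crygmx and crygmxl2 are direct neighbours, and their TPM ratio was 1.07, 1.35 and 0.581 in tlr2-/- larvae, against 0.640, 0.565 and 0.521 in tlr2+/+ larvae, with overlap. Crygn1, crygm2b, crygm2c and crygm2e had means under 12 TPM with standard errors of 0.88 to 2.41. The gamma S genes crygs1, crygs2, crygs3 and crygs4, whose mammalian counterpart is a major crystallin of the mature lens, were at 0 in every library, as were crygm4 and further entries of crygm3 and crygm5. Crygm7 had a mean of 0.896 TPM and lay with crygmxl1 under the filter, and further entries of crygm7 and crygm2f had 9 and 125 reads in a single library.

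Other neighbouring crystallin genes differed in how closely their ratio held. The direct neighbours crybb1 and cryba4, a basic and an acidic beta gene, had a TPM ratio of 1.64, 1.64 and 1.87 in tlr2-/- larvae, against 2.15, 2.19 and 1.99 in tlr2+/+ larvae, without overlap. Among 780 pairs of tested alpha, beta and gamma entries with reads in every library, which share genes, 17.9% had ratios that did not overlap between the genotypes. The neighbours cryba1l1 and crybb1l1 had ratios of 2.85, 3.11 and 3.14 in tlr2-/- larvae, against 2.24, 2.95 and 2.17 in tlr2+/+ larvae. Crybb1l2 and cryba1l2, also neighbours, had ratios of 2041, 1058 and 2222 in tlr2-/- larvae, against 816, 279 and 144 in tlr2+/+ larvae, without overlap. These were the largest ratios of the 5 neighbouring beta and gamma pairs, and cryba1l2 rested on 5 to 180 reads per library.

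The crybg entries did not share 1 library order. Over the 6 libraries, as a description, Pearson's r of log2(CPM + 1) with the log2 sum of the other crystallins was -0.67 for crybg1b and -0.44 for crybg1a, but 0.91 for the crybgx entry ENSDARG00000036140 and 0.73 for the crybgx entry ENSDARG00000109487. Crybg1b, 1 of 2 zebrafish counterparts of a mammalian gene that is not restricted to the lens, had 21.1, 15.7 and 25.7 CPM in tlr2-/- larvae, against 9.20, 9.47 and 17.8 CPM in tlr2+/+ larvae (log2 fold change 0.78, SE 0.48, edgeR adjusted p = 1.0). The entry ENSDARG00000109487 had 80.4, 23.7 and 11.8 CPM in tlr2-/- larvae, against 186, 76.1 and 23.5 CPM in tlr2+/+ larvae (-1.30, SE 0.86). Its partner ENSDARG00000036140 had a fold change of -0.48 (SE 0.46), and crybg1a of 0.24 (SE 1.39).

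The crystallins varied together between libraries far more than between genotypes. The summed alpha, beta and gamma level was 18519, 24780 and 8461 CPM in tlr2-/- larvae, against 32821, 21988 and 5879 CPM in tlr2+/+ larvae, a 5.58-fold range. In descending order of CPM the libraries ran tlr2+/+ 1, tlr2-/- 2, tlr2+/+ 2, tlr2-/- 1, tlr2-/- 3 and tlr2+/+ 3, so the genotypes were interleaved. The order depended on the scale. As a share of all TPM, tlr2+/+ replicates 1 and 2 (4.44 and 2.81%) stood above every tlr2-/- library (2.52, 2.64 and 1.12%). By that share tlr2+/+ replicate 3 (1.64%) stood above tlr2-/- replicate 3 alone. In RNA of whole larvae, fewer lens cells and less crystallin RNA per lens cell cannot be told apart.

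Of the 43 tested alpha, beta and gamma entries, 12 were highest in tlr2-/- replicate 2, 23 in tlr2+/+ replicate 1 and 8 in tlr2+/+ replicate 2. The lowest CPM was in tlr2-/- replicate 3 for 10 and in tlr2+/+ replicate 3 for 28, and for 36 of 43 these were the 2 lowest libraries. By TPM, 34 of 43 were highest in tlr2+/+ replicate 1 and 34 lowest in tlr2-/- replicate 3, so which of the replicates 3 came last depended on the scale. The TMM factor of tlr2+/+ replicate 3 differs most from the others. As a share of all reads, before TMM scaling, the crystallins made up 0.932% in tlr2+/+ replicate 3 and 0.777% in tlr2-/- replicate 3. The scaling thus reversed the order of these 2 libraries in summed CPM, and why the factor differs was not tested.

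**Figure D4:**
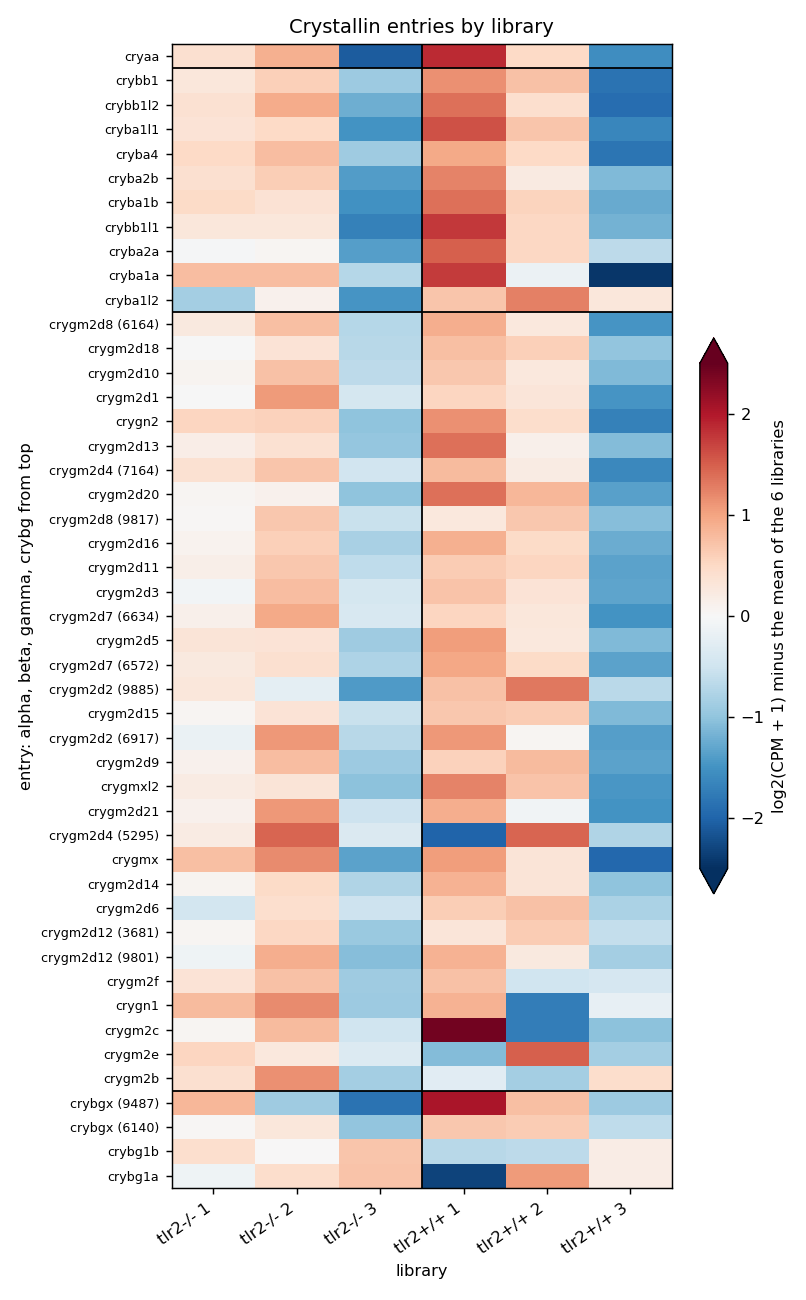
Log2(CPM + 1) of each tested crystallin entry minus its mean over the 6 libraries, in colour, with tlr2-/- libraries in the left columns and tlr2+/+ libraries in the right columns, and entries ordered by class and, within a class, by falling mean TPM. The third column of each genotype is low for nearly all alpha, beta and gamma entries (the 2 lowest libraries of 36 of 43), while crybg1b and crybg1a do not share this order.

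As a description over 6 libraries that share depth and scaling, each entry's log2(CPM + 1) was correlated with the log2 sum of the other crystallins. The median Pearson's r was 0.95 for 10 beta and 0.95 for 32 gamma entries and r was 0.95 for cryaa, while the median over 16733 other genes was -0.21. An r over 0.8 was reached by 9 of 10 beta and 25 of 32 gamma entries, beside 2.64% of the other genes. The entries outside this pattern were mostly of low level, such as crygm2b, crygm2e and cryba1l2, or were copies that share a symbol, such as the second entry of crygm2d4 (r = 0.14 at the lowest of the crygm2d set).

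The common variation was large for genes of this level. The median ratio of the highest to the lowest library was 5.74 in CPM for those of the 43 entries with reads in every library. It was 3.96 over all genes tested with reads in every library and 2.67 over the 968 genes with a mean of at least 100 CPM. Expressed as a share of the crystallin reads of the same library, the median ratio of the same crystallin entries was 1.83.

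The shares of single entries within that pool are given as a description, for entries chosen after their values were seen because their libraries separated by genotype. Of 43 entries, 3 had a lower and 2 a higher share in tlr2-/- larvae without overlap. In CPM, which is another measure, 6.2% of all genes tested were lower and 6.87% higher without overlap. No matching background was computed for shares, so nothing is read from these counts. Cryba2a made up 1.32, 1.05 and 1.13% of crystallin reads in tlr2-/- larvae, against 2.15, 1.64 and 2.71% in tlr2+/+ larvae. Crygm2d20 made up 2.44, 1.88 and 2.53% in tlr2-/- larvae, against 3.44, 3.51 and 2.88% in tlr2+/+ larvae. Cryba1l2, lower in each tlr2-/- library as well, made up 0.0578% or less in every library. The crygm2d4 entry ENSDARG00000087164 made up 3.75, 3.50 and 4.54% in tlr2-/- larvae, against 2.83, 2.82 and 2.96% in tlr2+/+ larvae, and the crygm2d8 entry ENSDARG00000116164 made up 4.01, 4.28 and 4.52% in tlr2-/- larvae, against 3.62, 3.46 and 3.86% in tlr2+/+ larvae. The crygm2d entries among them are gamma M copies that can exchange reads, and crystallin shares sum to a whole, so they are not independent of each other.

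Other lens fiber genes followed the crystallins in part. Of 23 entries on a list of fiber membrane and cytoskeleton genes 20 were tested, 0 were called by edgeR, 10 had negative and 10 positive fold changes, and the median was -0.07. The list summed to 414, 476 and 238 CPM in tlr2-/- larvae, against 648, 329 and 280 CPM in tlr2+/+ larvae, again with overlap. How much of this sum came from the lens is not shown by RNA of whole larvae. The cdh2 entry ENSDARG00000018693 gave 65.7, 66.0 and 85.3 CPM of it in tlr2-/- larvae, against 53.8, 39.2 and 112 CPM in tlr2+/+ larvae. Its r with the crystallin sum was -0.83, and that of ank2b was -0.57. The correlation with the crystallin sum was over 0.8 for 6 of the 20, namely mipb (0.99), lim2.5, lim2.3, lim2.4, epha2a and grifin. Bfsp2 had 26.6, 24.9 and 10.4 CPM in tlr2-/- larvae, against 147, 20.0 and 18.3 CPM in tlr2+/+ larvae (-1.58, SE 0.82), so that tlr2+/+ replicate 1 stood apart.

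Lens transcription factor genes did not show the library order of the crystallins. Of 18 tested, 0 were called and 0 had an r over 0.8, and the list summed to 372, 351 and 370 CPM in tlr2-/- larvae, against 393, 310 and 455 CPM in tlr2+/+ larvae. The meis2a entry ENSDARG00000098240 led that sum, with means of 136 CPM in tlr2-/- and 133 CPM in tlr2+/+ larvae. Pitx3 had means of 5.51 and 7.52 CPM, and foxe3 of 1.53 and 1.48 CPM. RNA of whole larvae does not show how much of the sum came from the lens. Hsf4, which encodes a heat shock factor needed for lens fibers in mammals, lay between 0 and 0.322 CPM. Small heat shock protein genes other than the alpha crystallins summed to 69.6, 83.4 and 66.2 CPM in tlr2-/- larvae, against 108, 108 and 48.1 CPM in tlr2+/+ larvae, and 0 of 7 tested entries were called. The entry of smallest p on the transcription factor list was hmx4, with 3.95, 3.43 and 8.35 CPM in tlr2-/- larvae, against 9.80, 28.3 and 8.50 CPM in tlr2+/+ larvae (log2 fold change -1.57, SE 0.67, edgeR adjusted p = 1.0). On the small heat shock list it was the hspb2 entry ENSDARG00000114010, with no reads in tlr2-/- larvae, against 1.51 to 3.32 CPM in tlr2+/+ larvae (edgeR adjusted p = 1.0). The other hspb2 entry, ENSDARG00000052450, was higher in tlr2-/- larvae. It had 11.3, 3.43 and 4.76 CPM there, against 0.0667, 2.66 and 0.416 CPM in tlr2+/+ larvae (log2 fold change 2.64, SE 1.44).

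Photoreceptor genes of the neighbouring retina did not show the library order of the crystallins. Of the 42 tested, 20 had negative and 22 positive fold changes. The sum of 46 photoreceptor entries was 16559, 20662 and 21332 CPM in tlr2-/- larvae, against 13638, 12545 and 10494 CPM in tlr2+/+ larvae, without overlap, and 0 of the 42 tested were called by edgeR. Calls on the lists were counted with edgeR alone, not with DESeq2 or limma-trend. The rod opsin gene rho held most of that sum, with 9891, 12740 and 11590 CPM in tlr2-/- larvae, against 6109, 5186 and 2491 CPM in tlr2+/+ larvae (log2 fold change 1.31, SE 0.44, edgeR p = 0.012, adjusted p = 1.0). Without rho the other 45 entries summed to 6668, 7922 and 9743 CPM in tlr2-/- larvae, against 7529, 7359 and 8003 CPM in tlr2+/+ larvae, so the groups overlapped and the separation of the sum rests on rho. The entry of smallest p was the arr3a entry ENSDARG00000056511, a cone arrestin gene, with 298, 410 and 424 CPM in tlr2-/- larvae, against 169, 178 and 213 CPM in tlr2+/+ larvae (log2 fold change 1.01, SE 0.34, edgeR adjusted p = 1.0). The other arr3a entry, ENSDARG00000114648, had a log2 fold change of -0.59 (SE 0.92). The study listed rho and arr3a entry ENSDARG00000056511 as higher in tlr2-/- larvae at its own threshold, an s-value of at most 0.005. None of the 42 had an r over 0.8 with the crystallin sum, and the median r was -0.45. The part of eye tissue share in the crystallin levels was not tested.

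**Figure D5:**
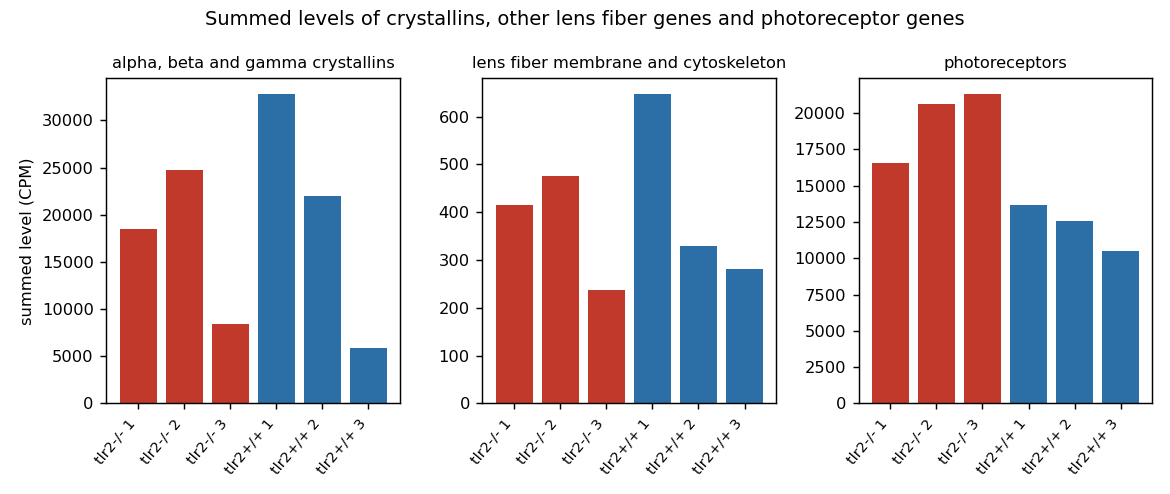
Summed CPM per library (bars, from 0; axes differ between panels) of the alpha, beta and gamma crystallins, of a list of lens fiber membrane and cytoskeleton genes and of a list of photoreceptor genes, tlr2-/- libraries in red on the left and tlr2+/+ libraries in blue on the right. Crystallins range from 5879 to 32821 CPM with both genotypes interleaved. The photoreceptor sums lie at 16559 CPM or above in tlr2-/- larvae and at 13638 CPM or below in tlr2+/+ larvae. Without rho they overlap, at 6668 to 9743 CPM in tlr2-/- larvae and 7359 to 8003 CPM in tlr2+/+ larvae. How much of the fiber list sum came from the lens is not shown by RNA of whole larvae.

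Of the remaining lists, 0 of 15 tested entries of retinal pigment epithelium, 0 of 25 of retinal interneurons and glia and 0 of 21 of cornea and skin epithelium were called by edgeR. In the pigment epithelium list the median r with the crystallin sum was 0.36 and 2 of 15 were over 0.8, of which rpe65a, an enzyme gene of the visual cycle, had an r of 0.92. The entry of smallest p there was tyrp1a, a gene of melanin synthesis, with 151, 152 and 144 CPM in tlr2-/- larvae, against 71.8, 44.1 and 27.3 CPM in tlr2+/+ larvae (log2 fold change 1.64, SE 0.39, edgeR adjusted p = 1.0). The study listed tyrp1a as higher in tlr2-/- larvae at its s-value threshold. Most of the pigment epithelium list went the other way. Of its 15 tested entries 12 had negative and 3 positive log2 fold changes, with a median of -0.61. Tyrp1b had a log2 fold change of -0.28 (SE 0.40). The entry of smallest p of interneurons and glia was slc6a9, a glycine transporter gene (log2 fold change 1.23, SE 0.55), and that of cornea and skin was the krt4 entry ENSDARG00000115790, a keratin gene (-1.04, SE 0.43), both with an edgeR adjusted p of 1.0. Over the 7 lists, 6 of 148 tested entries had an unadjusted edgeR p under 0.05 with lower levels in tlr2-/- larvae and 4 with higher levels, beside 1.99 and 1.73% of all genes.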

How the data were processed

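RNA of whole larvae was measured in 6 libraries, 3 per genotype. The authors made the estimated counts and the TPM values with Salmon 1.2.1 against GRCz11, and both were deposited per transcript. The mean signal of each gene was deposited by the authors as a mean of counts divided by DESeq2 1.24.0 normalization factors. Their fold changes and s-values are in the same table and were not used in the fits or counts given here. The sources used here do not state Salmon options, strand setting or annotation release.

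Genes were joined to runs of up to 40 neighbouring transcript rows whose normalized counts gave the deposited mean within a relative difference of 1e-12. This joined 21079 genes, 12544 of them from 1 transcript, with a largest difference of 6.6e-15. Another 4 genes had ambiguous matches and were left out, and 2873 had reads in 1 library. Joined genes held over 99.9% of reads.

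Counts were summed per gene, rounded, filtered with filterByExpr, TMM scaled and fitted with the robust quasi-likelihood model of edgeR 4.0.16 with genotype as the only factor, after the code was tested on simulated data. The simulated libraries varied far less than these, so that test does not show the power or error of the fit here. A gene was called when its Benjamini-Hochberg adjusted p was under 0.05. The SE is the log2 fold change divided by the square root of F. Alternatives used DESeq2 1.42.0, apeglm 1.24.0 (s-value of at most 0.005) and limma 3.58.1 on log2(TPM + 1) or log2(TPM + 0.1). R 4.3.3, Python 3.11.15 and matplotlib 3.10.9 were used.

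Values by library are given for alpha entries, for the 3 beta and 3 gamma entries of highest mean TPM, for the 6 crystallins of smallest p for lens markers and for the entry of smallest p of other lists (2 of them by fold change alone). Other entries named were chosen after their values were seen. Members and lists were chosen with earlier results of these data known. Protein and promoter sequences were not analysed here.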

Additional observations from a re-analysis of the deposited data

How the results depend on the processing

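The count of crystallins called by the edgeR fit was 0 and stayed 0 under a filter at a mean CPM of 1 or no filter, RLE factors, DESeq2 (Wald test or apeglm), limma-trend on log2(TPM + 1) or log2(TPM + 0.1), summed entries of a symbol, summed crygm2d entries, the replicate number as a block, and leaving out each library in turn (0 to 0). The count over all genes was 1 and became 3 with no filter, 0 with a mean CPM of at least 1, 30 with DESeq2's Wald test, 36 with apeglm, 7 and 0 with limma-trend at the larger and smaller pseudocount, 0 with symbols summed and 0 to 5 without 1 library. The replicate block gave 64 genes, and crybb1l2 had a log2 fold change of 0.073 with it. The labels do not say whether the replicate numbers pair the samples. Deviations of same-numbered libraries correlated at 0.031, 0.066 and 0.12, and those of differently numbered libraries at -0.15 to 0.076. With 3 libraries per genotype these values cannot decide whether the numbers pair the samples. Leaving out 1 library moved the log2 ratio of the summed CPM between -1.25 and 0.40 (alpha), -0.87 and 0.28 (beta) and -0.53 and 0.32 (gamma), and the log2 fold changes between -1.25 and 0.47 for cryaa, -0.83 and 0.21 for crybb1, -0.70 and 0.65 for crybb1l2, -1.18 and 0.12 for cryba1l1, -0.41 and 0.63 for crygm2d8 and -0.37 and 0.50 for crygm2d10. By limma-trend at the larger and smaller pseudocount, crygm2d8 was at -0.24 and -0.24 and crygm2d10 at -0.36 and -0.36. The cause was not tested.

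An alternative chosen after seeing the data set the tlr2-/- libraries against tlr2+/+ replicate 3 alone, leaving out tlr2+/+ replicates 1 and 2 and assuming that the lone library varies like the others. As it had the lowest crystallin sum in CPM, the direction follows from the choice of library. It called 758 genes, 3.73% of those tested, and 2 crystallins, cryba1a (4.05) and crygm2d4 (2.07), both higher in tlr2-/- larvae. Of 52 crystallins tested, 22 had an unadjusted edgeR p under 0.05 and higher levels in tlr2-/- larvae, beside 8.39% of all genes, and the median log2 fold change was 1.52. The log2 ratios of the sums were 1.89 (alpha), 1.74 (beta) and 1.45 (gamma), and the log2 fold changes 2.06 for cryaa, 2.13 for crybb1, 2.35 for crybb1l2, 1.82 for cryba1l1, 1.09 for crygm2d18, 0.50 for cryba2a, 0.54 for crygm2d2, 1.33 for crygm2d20 and 0.88 for crybgx.

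With 3 libraries per genotype and a biological coefficient of variation of 1.05, a p above the threshold does not show that the genotypes have equal crystallin levels.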
